A study of Mus musculus with 30 samples.

Results

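The cells described here are CD8 T cells from mouse oral carcinomas that carried RNA for both Tcf7 and Pdcd1, the gene for PD-1, and in which no RNA of Havcr2, the gene for TIM-3, or of the division gene Mki67 was detected. They were chosen by a rule on unique molecular identifiers (UMIs, 1 per captured RNA molecule). A cell needed at least 300 detected genes and at most 10% mitochondrial UMIs. It needed at least 1 UMI of a CD3 gene, of Cd8a or Cd8b1, of Tcf7 and of Pdcd1. It had to hold no UMI of Cd4, Foxp3, Havcr2 (TIM-3) or Mki67, and fewer than 2 UMIs of Gzmk. The rule kept 586 of 29075 cells, which is 586 of 10577 CD8 T cells and 586 of 6281 PD-1+ CD8 T cells. Before the exclusions of Havcr2, Gzmk and Mki67 there were 1005 Tcf7+ PD-1+ cells.

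Tcf7 encodes TCF-1, a transcription factor that naive and memory T cells need and that activated effector cells switch off. In chronic infection and in tumours, PD-1+ CD8 T cells that keep TCF-1 renew themselves and give rise to TCF-1-negative, TIM-3+ exhausted cells. Slamf6 and Id3 are known markers of this progenitor state, and these cells are known to proliferate after PD-1 blockade.

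The cells came from 3 implanted squamous carcinoma models, MOC1, MOC1E1 and MOC22, grown in C57BL/6J mice. Antibody was injected on days 3, 6 and 9: either an isotype control, one that blocks PD-1, or one against CTLA-4. No MOC22 library with anti-CTLA-4 was analysed here. The 8 groups are MOC1 isotype, MOC1 anti-PD-1, MOC1 anti-CTLA-4, MOC1E1 isotype, MOC1E1 anti-PD-1, MOC1E1 anti-CTLA-4, MOC22 isotype and MOC22 anti-PD-1, each with 1 library of 5′ gene expression and 1 of T cell receptors. The labels call the MOC1 and MOC22 RNA material T cells and the MOC1E1 material immune cells. With 1 library per model and treatment, treatment effects rest on the models as replicates, and p-values measure the spread between these libraries.

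In library order as listed above, 81, 75, 190, 19, 39, 55, 45 and 82 cells met the rule. The MOC1 anti-CTLA-4 library thus supplied the most cells and the MOC1E1 isotype library the fewest. Median depth of the chosen cells was 4487 to 7624 UMIs by library, and 361 of them (61.6%) held exactly 1 Tcf7 UMI. At the Gzmk limit, 69 chosen cells held 1 Gzmk UMI and 32 cells that met every other condition held 2. Between any pair of the 8 libraries, 7 to 35 barcodes were shared.

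The comparison cells, called matched Tcf7=0 cells below, met every condition of the rule except that Tcf7 was 0. There were 1873 of them, at a median of 4570.5 to 7011 UMIs by library. In MOC1 isotype the chosen cells were deeper (6887 UMIs) than the matched cells (4570.5 UMIs). They were also deeper in MOC1 anti-CTLA-4, MOC1E1 isotype (7624 against 7011), MOC22 isotype (6549 against 5370) and MOC22 anti-PD-1. They were shallower in MOC1 anti-PD-1, MOC1E1 anti-PD-1 and MOC1E1 anti-CTLA-4. Pooled over libraries, the medians were 5832.5 and 5138 UMIs. Free RNA gave a low Tcf7 background: in the MOC1E1 libraries, which held 288 to 1199 myeloid cells (at least 5 Lyz2 UMIs) at medians of 4596.5 to 7091 UMIs, 0.103 to 0.347% of them had a Tcf7 UMI. CD8 T cells of the same libraries, at medians of 4744.5 to 5926 UMIs, had one in 17.7 to 60.3%.

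The share of PD-1+ CD8 T cells that met the rule was highest under isotype antibody in every model. In MOC1 the share was 23.3% under isotype (exact 95% interval 19.0 to 28.2), 7.09% under anti-PD-1 (5.62 to 8.81) and 13.2% under anti-CTLA-4 (11.5 to 15.1). In MOC1E1 it was 25.7% under isotype (16.2 to 37.2), 10.05% under anti-PD-1 (7.25 to 13.5) and 7.44% under anti-CTLA-4 (5.66 to 9.58). In MOC22 it was 11.4% under isotype (8.43 to 14.9) and 4.44% under anti-PD-1 (3.55 to 5.48). No antibody interval overlapped the isotype interval of its own model, and these intervals cover counting error only.

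Averaged over models, the antibody share minus the isotype share was -12.4 percentage points, with -13.2 in MOC1, -16.9 in MOC1E1 and -6.95 in MOC22. The two-sided exact permutation test within models gave p = 0.0556, the smallest that its 18 arrangements allow. Within MOC1, where 4 hashtags divide each library, the share by hashtag was 20.2 to 29.3% under isotype, 5.92 to 11.6% under anti-PD-1 and 12.7 to 14.4% under anti-CTLA-4, so the hashtags of the 3 libraries did not overlap. The labels used here do not say what a hashtag stands for.

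Against all CD8 T cells the picture was less uniform. The share was 9.72% under isotype, 5.20% with PD-1 blocked and 8.83% under anti-CTLA-4 in MOC1. In the same order it was 6.86, 4.99 and 4.0% in MOC1E1, and for MOC22 it was 3.04% with isotype and 3.66% with anti-PD-1. MOC22 thus had a higher share with antibody on this denominator. The mean difference fell to -1.48 percentage points (exact permutation p = 0.278), while PD-1+ cells made up 26.7 to 41.7% of CD8 T cells under isotype and 49.6 to 82.4% with an antibody. After thinning every cell to 2000 UMIs the difference per PD-1+ cell was -4.83 points, at the smallest possible exact permutation p (0.0556). Isotype shares stayed highest in each model, but some intervals then overlapped. MOC1E1 isotype was at 7.69% (1.62 to 20.9), on 3 of 39 cells, and overlapped both antibody libraries (5.98 and 4.90%). MOC1 isotype (10.9 to 19.6) overlapped its anti-CTLA-4 library (7.68 to 11.3). The anti-PD-1 intervals of MOC1 (2.65 to 5.23) and MOC22 (1.23 to 2.75) still lay below isotype.

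**Figure D1:**
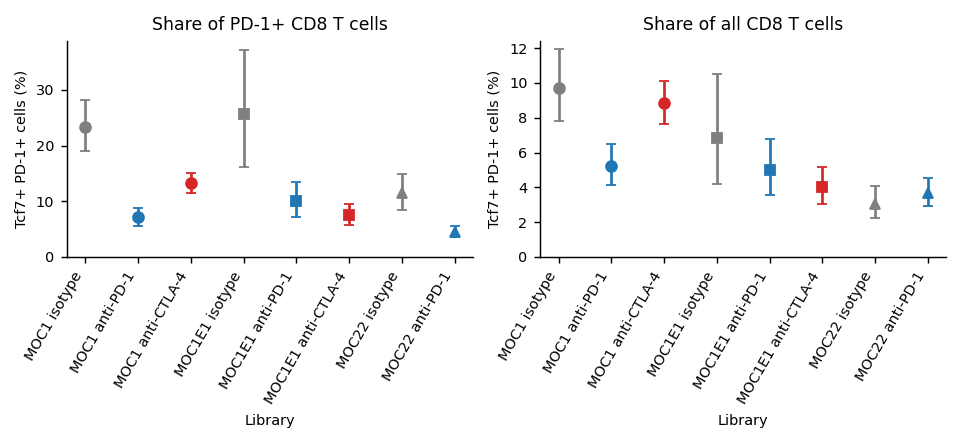
Cells that met the rule as a percentage of PD-1+ CD8 T cells (left) and of all CD8 T cells (right) in each library, with exact 95% binomial intervals. Grey marks isotype, blue anti-PD-1 and red anti-CTLA-4, and circles, squares and triangles mark MOC1, MOC1E1 and MOC22. On the left every antibody library lies below the isotype library of its model, from 4.44 to 13.2% against 11.4 to 25.7%.

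Compared with matched Tcf7=0 cells, the Tcf7+ PD-1+ cells carried more RNA for called genes of the progenitor and naive or central memory lists and less for called genes of the cytotoxic, checkpoint and glycolysis lists. UMIs were summed per library and state, expressed as CPM (UMIs scaled to a common library total with TMM factors), and tested with edgeR's quasi-likelihood test with the library as a block. At a Benjamini-Hochberg adjusted p of 0.05 or less, 205 of 7093 genes were called (2.89%), 77 of them higher (1.09%) and 128 lower (1.80%). In all 8 libraries, 39 of the 77 and 61 of the 128 moved in the called direction. Over all 7093 tested genes, 87 were higher and 140 lower in all 8 libraries. The genes of the rule were left out of the test. In such sums, fewer cells with a gene and less RNA per cell cannot be told apart. What differs between states by the rule is Tcf7 alone, and both states were held to the same limits for the other rule genes.

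S1pr1, the receptor that lets lymphocytes leave tissue along sphingosine 1-phosphate, had the smallest p among the genes that rose. Its level was 24.4 to 145 CPM in the Tcf7+ cells (median 93.1) and 15.8 to 57.7 CPM in the matched cells (median 34.5). It was higher in 8 of 8 libraries, with a log2 fold change of 1.41 (SE 0.15, edgeR adjusted p = 1.34e-05). The ranges overlapped across libraries although each library showed the same direction.

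Id3, a repressor of E-protein factors that marks progenitor cells, was at a median of 85.6 CPM (5.90 to 117) against 10.7 CPM (3.78 to 44.6), a log2 fold change of 1.77 (SE 0.28, edgeR adjusted p = 0.00119). The low end of its range in the Tcf7+ cells came from MOC1 anti-CTLA-4. Nsg2, a vesicle protein gene also transcribed in naive T cells, was at 49.2 CPM (13.5 to 81.9) against 10.7 CPM (0.807 to 28.4), a log2 fold change of 1.88 (SE 0.24, edgeR adjusted p = 7.82e-05). Both were higher in 8 of 8 libraries.

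Itgb1, the integrin beta 1 chain, was the most abundant of the named rises, and its groups did not overlap. It lay between 516.8 and 829.1 CPM in the Tcf7+ cells and between 308 and 506 CPM in the matched cells (log2 fold change 0.76, SE 0.12, edgeR adjusted p = 0.00104). Cd9, a tetraspanin, Pdlim1, a cytoskeletal adaptor, Slfn1, Pja1, Ssh2 and Cdc25b, a cell cycle phosphatase, completed the 10 largest rises that held in every library, with log2 fold changes of 0.98, 0.79, 0.70, 0.75, 0.71 and 0.88.

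**Figure D2:**
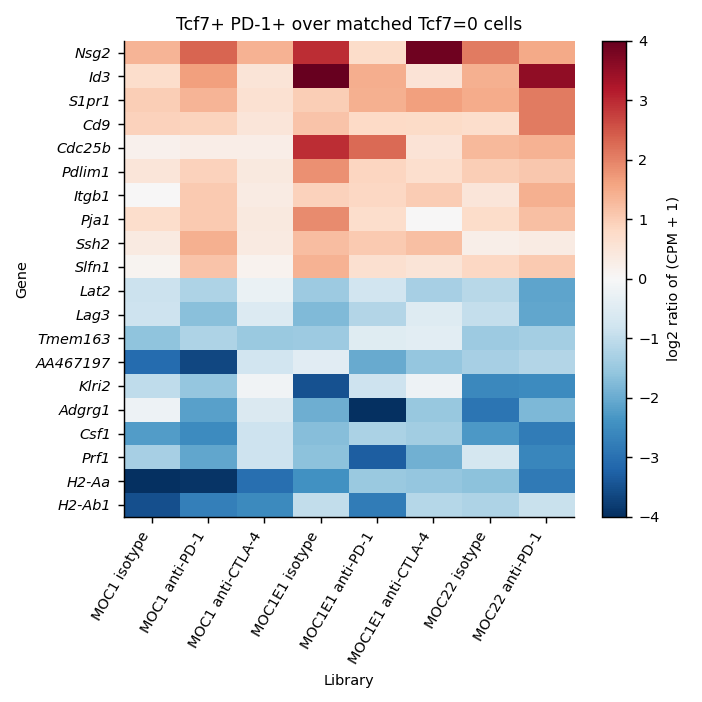
Log2 ratio of (CPM + 1) in Tcf7+ PD-1+ cells over matched Tcf7=0 cells for the 10 largest rises and 10 largest falls that held in every library, by library. Red is higher and blue lower in the Tcf7+ cells, and the colour scale stops at 4 in either direction.

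Slamf6 encodes a receptor of the SLAM family, was not part of the rule and is the usual surface marker of the progenitor state. A Slamf6 UMI was found in 25.9% (under isotype), 38.7% (with PD-1 blocked) and 20.5% (under anti-CTLA-4) of the Tcf7+ cells in MOC1, against 31.2, 15.6 and 9.44% of matched cells. In MOC1E1 the shares were 42.1, 51.3 and 10.9% against 29.6, 22.7 and 5.32%, and in MOC22 isotype and anti-PD-1 they were 26.7 and 36.6% against 9.15 and 10.0%. The Tcf7+ cells had the higher share in 7 of 8 libraries and the lower in MOC1 isotype. The mean difference was 14.95 percentage points (two-sided exact sign-flip permutation test, p = 0.0156), and Slamf6 UMIs were called in the edgeR test too, at a log2 fold change of 1.03 (SE 0.22, adjusted p = 0.00884). That edgeR call was lost without MOC1 anti-PD-1 (0.92, adjusted p = 0.0506) or MOC22 anti-PD-1 (0.87, adjusted p = 0.0647). Slamf6 RNA was thus detected in a minority of the cells in 7 of 8 libraries, and most of the chosen cells were not checked by this marker.

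Of 25 genes listed for stem-like progenitor cells, 20 were tested, 7 rose and 0 fell, with a median log2 fold change of 0.46 against -0.0038 over all genes tested. The 7 were Slamf6, Id3, Lef1, Il7r, Foxp1, Nsg2 and Cd9. Lef1, the factor most closely related to TCF-1, rose by 1.20 (SE 0.29, edgeR adjusted p = 0.0262) and was higher in 7 of 8 libraries. Of the other members, Xcl1, a chemokine that attracts cross-presenting dendritic cells, had a log2 fold change of -0.71 (edgeR adjusted p = 0.352), and Bach2, a repressor of effector genes, had 0.46 (edgeR adjusted p = 0.503). Eomes, a T-box factor, had 0.98 (edgeR adjusted p = 0.270).

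Genes of naive and central memory T cells rose as well. Of 17 listed, 15 were tested, 9 rose and 0 fell, all 15 had a positive fold change, and the median was 1.20. This list overlaps the progenitor list, and Lef1, Il7r and Nsg2 are counted among the rises of both. Klf2, a factor that drives S1pr1, was at 319 CPM (59.8 to 494) against 139 CPM (76.7 to 318), a log2 fold change of 0.93 (SE 0.17, edgeR adjusted p = 0.00422). Klf3, Dapl1, Bcl2, a survival factor, and Il7r, the IL-7 receptor, also rose, while Ccr7 had a log2 fold change of 0.51 (edgeR adjusted p = 0.646).

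Cells with RNA of the naive and central memory gene Ccr7 were present on both sides of the comparison. A UMI of Ccr7, the receptor that guides naive and central memory T cells into lymph nodes, was found in 40.7, 38.7 and 9.47% of Tcf7+ cells in the 3 MOC1 libraries, 15.8, 23.1 and 3.64% in those of MOC1E1, and 24.4 and 15.9% for MOC22, treatments ordered as above. In the matched cells these shares were 31.2, 19.8 and 4.90%, 25.9, 2.06 and 1.52%, and 6.34 and 1.36%. The Tcf7+ cells had the higher share in every library but MOC1E1 isotype. Of the 586 cells, 69 had a Ccr7 UMI and no Cd44 UMI. A Cd44 count of 0 was common, at 43.6 to 68% of Tcf7+ cells and 37.0 to 59.5% of matched cells by library. It thus does not show that a cell was naive. Leaving out every cell with Ccr7, an alternative chosen after seeing the data, left 126 of 5578 genes called (2.26%), of which 119 had been called before, each in the same direction. S1pr1 (1.36), Id3 (1.91), Slamf6 (1.23) and Klf2 (1.01) still rose, with edgeR adjusted p of 0.000105, 0.00073, 0.00333 and 0.00187.

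The fall of cytotoxic genes was broad. Of 28 effector and cytotoxic genes, 25 were tested, 16 fell and 0 rose, all 25 had a negative fold change, and the median was -0.52. Prf1, which encodes perforin, was at 28.3 CPM (13.9 to 64.4) in the Tcf7+ cells and 102 CPM (36.5 to 251) in the matched cells. It was lower in 8 of 8 libraries, with a log2 fold change of -1.81 (SE 0.20, edgeR adjusted p = 2.09e-05). Nkg7, a granule protein, was at 1820 CPM (1311 to 2289) against 3040 CPM (2054 to 3435), a log2 fold change of -0.65 (SE 0.07, edgeR adjusted p = 2.09e-05). Granzymes fell with them: Gzmb by 1.18, Gzma by 0.99 and the low-level genes Gzmc by 2.03 and Gzmf by 2.65, the last pair close copies whose reads may be split.

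Chemokine and regulator genes of effector cells also fell. Ccl3 fell by 1.43 and Ccl4 by 0.98, both inflammatory chemokines. Prdm1, the gene for BLIMP-1, a repressor that opposes TCF-1, fell by 1.42, and Id2 by 0.52. Fasl, a death ligand, fell by 0.68. Ccl5 (-0.32, edgeR adjusted p = 0.273), Ifng (-0.48, adjusted p = 0.437) and Cx3cr1 (-0.43, adjusted p = 0.358) did not pass the test.

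Among 24 checkpoint and exhaustion genes, 22 were measured, 21 tested, 9 fell and 0 rose, with a median of -0.41. Lag3, an inhibitory receptor that binds MHC class II, was at 237 CPM (122 to 301) against 474 CPM (240 to 925), a log2 fold change of -1.16 (SE 0.14, edgeR adjusted p = 4.79e-05). Tnfrsf9, the costimulatory receptor 4-1BB, fell by 0.92, Entpd1 (CD39) by 1.08, Cd244 (2B4) by 1.77, Tigit by 0.65 and Tox, the factor that programmes exhaustion, by 0.52. Lag3, Tnfrsf9 and Entpd1 were lower in 8 of 8 libraries and Tox in 5 of 8. Cd160, Cd101 and Ctla4 had log2 fold changes of -0.01, -0.11 and -0.41 and were not called. Pdcd1 itself set the rule for both states, and its mean was 1.85 to 4.36 UMIs per Tcf7+ cell and 2.18 to 7.39 per matched cell.

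Homing genes moved both ways. Of 20 listed, 19 were tested, 4 rose (S1pr1, Klf2, Itgb1 and Itgb7) and 3 fell, Cxcr6 and Rgs1 among them. Cxcr6, a receptor for the chemokine CXCL16 that marks tissue-resident and tumour effector cells, was at 399 CPM (135 to 646) against 689 CPM (221 to 1270), a log2 fold change of -0.93 (SE 0.13, edgeR adjusted p = 0.000299). Itgae, the gene for CD103, had 0.17 (edgeR adjusted p = 0.660). Csf1, the macrophage growth factor, was lower in 8 of 8 libraries, at 29.0 CPM (3.47 to 62.4) against 70.0 CPM (20.3 to 290), a log2 fold change of -1.80 (SE 0.20, edgeR adjusted p = 1.88e-05).

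All 15 glycolysis genes tested had negative fold changes, 5 of them called (Aldoa, Tpi1, Gapdh, Pgk1 and Eno1), with a list median of -0.37. Gapdh was at 1379 CPM (746 to 4173) against 1837 CPM (1323 to 5687) and fell by 0.43 (SE 0.07, edgeR adjusted p = 0.00215). Of 25 genes of T cell receptor activation, 24 were tested and 3 fell: Irf8 (-0.95), Bhlhe40 (-0.45) and Ccl1 (-1.51). Nr4a1 and Egr1, which are switched on by receptor signals within hours or less, had log2 fold changes of -0.17 and -0.27 and were not called.

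**Figure D3:**
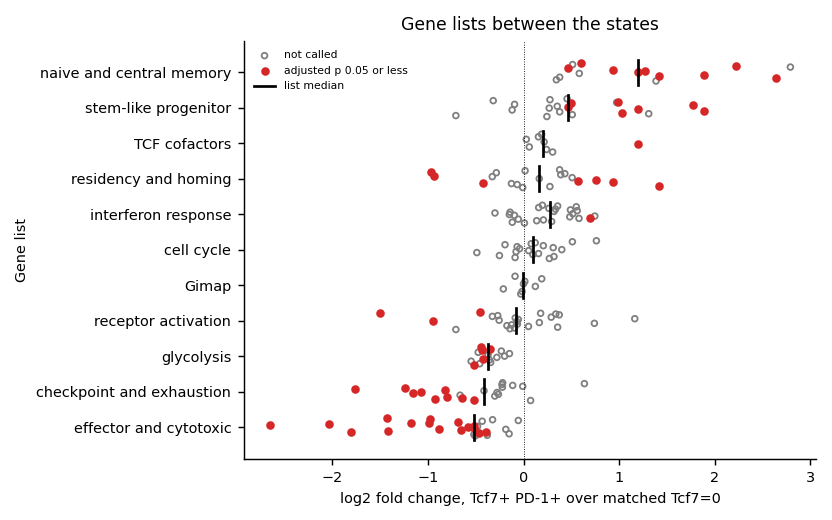
Log2 fold change of each tested gene in 11 gene lists, Tcf7+ PD-1+ over matched Tcf7=0 cells. Filled red points are genes called by edgeR and open grey points are not called. Black bars mark list medians, which run from -0.52 for effector and cytotoxic genes to 1.20 for naive and central memory genes.

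H2-Ab1 and H2-Aa, MHC class II chains of antigen-presenting cells, had the largest falls that held in every library among genes of at least 30 mean CPM (-2.39 and -2.23, edgeR adjusted p = 2.54e-06 and 1.14e-05). H2-Eb1, Cd74 and the macrophage genes C1qa and C1qb fell too. These falls rested on few cells. An MHC class II UMI was found in 38 of 586 Tcf7+ cells (6.48%) and 121 of 1873 matched cells (6.46%). Of the 2500 MHC class II UMIs in matched cells, 2300 lay in 14 cells with 10 or more each. Once cells with any UMI of 16 myeloid, dendritic or B-cell markers were left out (23 Tcf7+ and 74 matched cells), H2-Aa, H2-Ab1, C1qa and C1qb no longer passed the count filter and Cd74 had a log2 fold change of 0.08. Then 200 of 6681 genes were called (2.99%), and the counts for the progenitor, naive, effector, checkpoint and glycolysis lists stayed at 7, 9, 16, 9 and 5.

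Marker lists of other cell types gave the following levels. Summed over 14 myeloid markers, of which 13 had a UMI in the Tcf7+ cells, the level was 272 to 1588 CPM against 270 to 1923 CPM in matched cells. S100a8 was at 0 in the Tcf7+ cells. Cst3 was at 211 against 203 CPM pooled over libraries, but its median over libraries was 129 against 219 CPM. It was higher in the Tcf7+ cells in 1 of 8 libraries, MOC1E1 anti-PD-1 (1196 against 297 CPM). Lyz2 was at 5.70 CPM in the Tcf7+ cells against 15.1 CPM in matched cells, pooled over libraries. For 10 B-cell markers the summed level was 36.2 to 234 CPM against 29.0 to 129 CPM, with Ms4a1 at 1 UMI in all Tcf7+ cells and Cd79a at 13 (3.37 against 0.586 CPM, pooled over libraries). Ighm, a B-cell gene, was called higher (log2 fold change 0.92, edgeR adjusted p = 0.00692), and Cd79b had 1.09 (edgeR adjusted p = 0.0536). For 9 NK and innate markers it was 50.4 to 816 CPM against 71.4 to 1105 CPM, with Ncr1 at 1 UMI in the Tcf7+ cells and Klrb1c at 19. Fcer1g and Tyrobp were at 89.9 and 36.3 CPM against 94.4 and 34.2 CPM, pooled over libraries, and of this list Klra7 was called higher (log2 fold change 1.96, edgeR adjusted p = 0.0269) and Klri2 lower. For gamma delta T cells it was 20.4 to 120 CPM against 15.3 to 148 CPM, for dendritic cells 63.4 to 1661 CPM against 48.0 to 4447 CPM, and for carcinoma cells 8.0 to 30.3 CPM against 11.2 to 46.0 CPM, with Krt5 and Krt14 at 0 in the Tcf7+ cells and Epcam at 31 UMIs (8.03 against 4.49 CPM, pooled over libraries). The part of these cells in the other results was tested only by the exclusion above.

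T cell receptor sequences, read in the same cells, were independent of the rule. Both chains were found for 405 Tcf7+ cells and 1157 matched cells, and a clone was a pair of identical alpha and beta junction sequences within a library. As examples of clones with several Tcf7+ cells and cells of both states, 3 are shown. Capitals mark the first and last codons of the junction, which encode its conserved cysteine and phenylalanine. Sequences are from the deposited receptor tables, with the beta locus on mouse chromosome 6 and the alpha locus on chromosome 14.
Clone 1 beta (TRBV19, TRBJ2-7): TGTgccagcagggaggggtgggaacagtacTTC
Clone 1 alpha (TRAV6-5, TRAJ57): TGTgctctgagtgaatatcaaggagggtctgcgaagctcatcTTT
Clone 2 beta (TRBV12-2, TRBJ2-5): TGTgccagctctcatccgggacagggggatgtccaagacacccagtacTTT
Clone 2 alpha (TRAV7D-5, TRAJ9): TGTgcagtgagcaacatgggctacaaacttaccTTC
Clone 3 beta (TRBV13-3, TRBJ1-4): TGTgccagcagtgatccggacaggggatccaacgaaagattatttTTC
Clone 3 alpha (TRAV8D-2, TRAJ23): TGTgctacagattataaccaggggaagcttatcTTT

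Clone 1, from MOC1 anti-CTLA-4, had 6 Tcf7+ cells and 6 matched Tcf7=0 cells among its 20 receptor-typed cells, and 0 TIM-3+ cells. Clone 2, from MOC22 anti-PD-1, had 5 and 18 of 68, with 24 TIM-3+ cells, and clone 3, from MOC22 isotype, had 4 and 15 of 60, with 17 TIM-3+ cells. Cells of a clone share their source and are not replicates.

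Of the 405 typed Tcf7+ cells, 180 (44.4%) shared a clone with a Tcf7=0 PD-1+ CD8 T cell. A TIM-3+ PD-1+ CD8 T cell of the same clone was present for 122 (30.1%), an Mki67+ one for 119 (29.4%), and one with 2 or more Gzmk UMIs for 103 (25.4%). In all, the Tcf7+ cells belonged to 340 clones, 30 of which had 2 or more Tcf7+ cells, and 95 clones held both Tcf7+ and matched cells. MOC1 anti-CTLA-4 supplied 160 of the typed Tcf7+ cells and 50 of those 95 clones. Without it, sharing fell to 80 of 245 Tcf7+ cells for any Tcf7=0 PD-1+ cell (32.7%), 55 for a TIM-3+ one (22.4%), 43 for an Mki67+ one (17.6%) and 37 for one with 2 or more Gzmk UMIs (15.1%). In library order, sharing with a TIM-3+ cell was 6.35, 9.68, 41.9, 27.3, 23.8, 42.9, 37.5 and 45.7% of typed Tcf7+ cells. For typed matched cells it was 7.25, 50, 55.0, 14.3, 63.3, 52.5, 50.6 and 71.0%, higher in every library but MOC1E1 isotype. Sharing with an Mki67+ cell reached 47.5% of Tcf7+ and 55.2% of matched cells, both in MOC1 anti-CTLA-4.

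The Tcf7+ cells were less often in expanded clones, meaning clones of 2 or more cells in the receptor library. The share in expanded clones was 31.7% under isotype, 27.4% with PD-1 blocked and 68.8% under anti-CTLA-4 in MOC1, against 39.1, 68.7 and 84.4% of matched cells. In MOC1E1 it was 45.5, 38.1 and 81.0% against 35.7, 85.7 and 76.2%, and in MOC22 isotype and anti-PD-1 46.9 and 62.9% against 62.4 and 81.1%. The Tcf7+ share was lower in 6 of 8 libraries and higher in MOC1E1 isotype, with 11 typed Tcf7+ cells, and MOC1E1 anti-CTLA-4. The mean difference was -16.4 percentage points (two-sided exact sign-flip permutation test, p = 0.0469). The widest gaps were in the anti-PD-1 libraries of MOC1 (-41.3 points) and MOC1E1 (-47.6 points). Leaving out 1 library at a time gave -11.9 to -20.1 points, and p rose to between 0.0625 and 0.0938 without any one of MOC1 isotype, MOC1 anti-PD-1, MOC1 anti-CTLA-4, MOC1E1 anti-PD-1, MOC22 isotype or MOC22 anti-PD-1. With expanded clones set at 5 or more cells, the difference was -10.8 points (exact permutation p = 0.133).

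**Figure D4:**
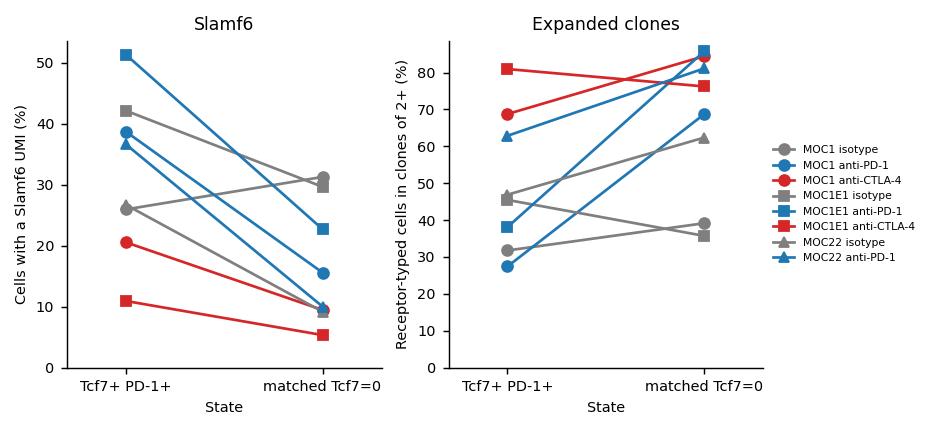
Percentage of cells with a Slamf6 UMI (left) and percentage of receptor-typed cells in clones of 2 or more (right), with lines joining the Tcf7+ PD-1+ and matched Tcf7=0 cells of each library. Slamf6 was higher in the Tcf7+ cells in 7 of 8 libraries and expanded clones were less frequent in 6 of 8.

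Restricting both states to clones that held both left 136 Tcf7+ and 327 matched cells in 4 libraries with at least 10 cells of each state, of which MOC1 anti-CTLA-4 supplied 95 and 209. Here 14 of 3406 genes were called (0.411%), 6 higher and 8 lower, and 10 of the 14 had been called over all cells, each in the same direction. The fit had the library as a block and no term for clone, so a clone could weigh differently in each state. Trbv1, a receptor segment, was among the 14 (log2 fold change -1.72, edgeR adjusted p = 0.00484). Over the pooled cells of these clones, Slamf6 rose by 1.94 (SE 0.45, edgeR adjusted p = 0.0425), Klf2 by 1.19 (SE 0.23, adjusted p = 0.0126) and Ccr7 by 1.25 (SE 0.26, adjusted p = 0.0144). Gzmb fell by 1.97 (SE 0.32, edgeR adjusted p = 0.00484), Prf1 by 1.36 (SE 0.30, adjusted p = 0.0247), Lag3 by 0.88 (SE 0.19, adjusted p = 0.0180), Tnfrsf9 by 1.18 (SE 0.21, adjusted p = 0.00484) and Nkg7 by 0.68 (SE 0.13, adjusted p = 0.00872). S1pr1 had a log2 fold change of 1.19 with an edgeR adjusted p of 0.565.

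The proximal promoters of the changed genes were searched for CTTTGAT, a core sequence that TCF and LEF proteins bind, on both strands, in RefSeq promoters of build GRCm38.p6 from 250 bases before to 50 bases after the start. A promoter was matched for 60 of the 77 genes that rose, and 6 of them (10.0%) held the sequence. It was in 2 of 95 matched promoters of genes that fell (2.11%), in 140 of 5592 matched promoters of tested genes (2.504%) and in 1006 of all 27025 promoters (3.72%). A match is a description of letters, and no test was run on it. The 6 genes were Emb, Cldnd1, Klra6, Cmah, Tgtp1 and Pim2. Emb encodes embigin, a chaperone of monocarboxylate transporters, and rose by 0.46 (SE 0.09, edgeR adjusted p = 0.00603), and Cmah, an enzyme of sialic acid synthesis, rose by 1.36 (edgeR adjusted p = 0.0101). Both promoters are shown with the sequence or its reverse complement in capitals.
Emb, chr13:117220323-117220622, plus strand: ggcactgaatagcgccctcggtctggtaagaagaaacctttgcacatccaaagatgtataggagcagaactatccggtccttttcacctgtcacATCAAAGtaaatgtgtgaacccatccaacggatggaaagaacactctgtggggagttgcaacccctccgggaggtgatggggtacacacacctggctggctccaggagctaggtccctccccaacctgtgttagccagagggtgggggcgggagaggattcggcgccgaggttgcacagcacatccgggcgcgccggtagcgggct
Cmah, chr13:24327154-24327453, plus strand: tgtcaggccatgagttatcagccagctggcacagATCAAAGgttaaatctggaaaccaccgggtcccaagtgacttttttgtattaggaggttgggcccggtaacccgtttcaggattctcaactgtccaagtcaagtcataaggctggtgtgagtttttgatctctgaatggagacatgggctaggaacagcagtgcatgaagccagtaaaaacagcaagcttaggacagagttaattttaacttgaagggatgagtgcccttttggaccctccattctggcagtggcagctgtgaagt

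The antibodies were compared with isotype inside the Tcf7+ PD-1+ cells, with the model as a block over 8 libraries and 3 residual degrees of freedom. Both comparisons use the same 3 isotype libraries, and the antibodies were not tested against each other. On simulated counts the anti-PD-1 fit called 48 of 96 genes given an absolute log2 fold change of 1. It called 89 of 95 genes given a change of 2, so smaller changes can be missed. With anti-PD-1, 1 of 5526 genes was called (0.0181%). That gene was Ccl1, a chemokine ligand of CCR8 made by activated T cells. Its level was 406 CPM under isotype and 50.4 CPM under anti-PD-1 in MOC1, 628 and 17.6 CPM for MOC1E1, and 1604 and 3.88 CPM for MOC22, where the anti-PD-1 value stands on 2 UMIs. The log2 fold change was -4.94 (SE 0.59, edgeR adjusted p = 0.00353), and DESeq2 gave -5.11 with an adjusted p of 0.125. Without cells with Ccr7 it was -5.16 (edgeR adjusted p = 0.747). With anti-CTLA-4 Ccl1 was at 9.73 CPM in MOC1 and 48.0 CPM in MOC1E1, also a log2 fold change of -4.94 (SE 0.72, edgeR adjusted p = 0.00251), and -3.86 without cells with Ccr7 (edgeR adjusted p = 0.280). At an unadjusted edgeR p under 0.05 there were 287 genes with anti-PD-1. In matched cells Ccl1 was at 296, 2989 and 1074 CPM under isotype and 310.5, 625.2 and 105.5 CPM under anti-PD-1 in MOC1, MOC1E1 and MOC22.

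With anti-CTLA-4, compared in MOC1 and MOC1E1, 122 of 5526 genes were called (2.21%), 63 higher (1.14%) and 59 lower (1.07%). The result leaned on MOC1: without MOC1 anti-CTLA-4 3 genes were called, without MOC1 isotype 19 and without MOC22 anti-PD-1 66, and without MOC1E1 anti-PD-1 or MOC1E1 anti-CTLA-4 186 and 184.

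Il12rb2, the signalling chain of the IL-12 receptor, rose from 10.3 to 127 CPM in MOC1 and from 6.91 to 62.8 CPM in MOC1E1, with 1 UMI behind the MOC1E1 isotype value. The anti-PD-1 libraries lay at 25.2, 17.6 and 25.2 CPM in MOC1, MOC1E1 and MOC22. The log2 fold change was 3.54 (SE 0.38, edgeR adjusted p = 0.000505) with anti-CTLA-4 and 1.38 (SE 0.44, edgeR adjusted p = 0.759) with anti-PD-1. Cxcr6 rose from 134 to 535 CPM in MOC1 and from 193 to 606 CPM in MOC1E1, a log2 fold change of 1.80 (SE 0.20, edgeR adjusted p = 0.000505), against 0.33 (edgeR adjusted p = 0.976) with anti-PD-1. In the matched cells of the same libraries Cxcr6 was at 277 and 664 CPM in MOC1 and 221 and 895 CPM in MOC1E1. Il12rb2 was there at 22.3 CPM under isotype and 117 CPM under anti-CTLA-4 in MOC1, and at 14.4 and 64.6 CPM in MOC1E1. The antibodies were not tested in the matched cells alone.

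Ccr2, a chemokine receptor of inflamed tissue, rose by 2.10, Csf1 by 2.88, Dgat1, an enzyme of triglyceride synthesis, by 2.22, and Ltb, lymphotoxin beta, by 1.17. For Csf1 the isotype values stand on 2 UMIs in MOC1 and 1 UMI in MOC1E1. With anti-PD-1 Ccr2, Csf1, Dgat1 and Ltb had log2 fold changes of 0.22, 0.05, 0.83 and -0.02 and were not called. In matched cells, isotype then anti-CTLA-4, Ccr2 was at 12.2 and 113 CPM in MOC1 and 62.5 and 181 CPM in MOC1E1. In the same order Csf1 was at 20.3 and 96.5 CPM, and 24.0 and 166 CPM. Dgat1 was at 83.0 and 263 CPM, and 43.2 and 136 CPM, and Ltb at 606 and 1213 CPM, and 577 and 1262 CPM. Id2, Klrc1 and Fasl were the 3 called of 22 tested effector genes, all higher. Lmna and Tesc rose in the fit (2.53 and 2.23) but were lower with anti-CTLA-4 in MOC1E1, at 14.8 against 41.4 CPM and 18.5 against 34.5 CPM. Without MOC1 anti-CTLA-4 their fold changes turned to -0.99 and -0.58.

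Of the progenitor list, 18 were tested, 8 fell and 2 rose with anti-CTLA-4, with a median of -1.23 against -0.0042 over all genes tested. Id3 fell from 72.2 to 5.68 CPM in MOC1 and from 117 to 14.8 CPM in MOC1E1, while MOC22 was at 118 CPM under isotype and 98.9 CPM under anti-PD-1. The log2 fold change was -3.31 (SE 0.37, edgeR adjusted p = 0.000505) with anti-CTLA-4 and -0.45 (SE 0.23, edgeR adjusted p = 0.976) with anti-PD-1. Xcl1 fell from 799 to 39.7 CPM in MOC1 and from 3073 to 332 CPM in MOC1E1, a log2 fold change of -3.75 (SE 0.63, edgeR adjusted p = 0.00719), and the anti-PD-1 value was -2.46 (edgeR adjusted p = 0.244). Ltb and Satb1 were the members that rose. In matched cells Id3 was at 44.6 CPM under isotype and 3.78 CPM under anti-CTLA-4 in MOC1, and at 4.81 and 9.69 CPM in MOC1E1. Xcl1 was there at 387 and 287 CPM in MOC1 and 5536 and 167 CPM in MOC1E1.

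Of the naive and central memory list, 15 were tested, 7 fell and 1 rose with anti-CTLA-4, with a median of -2.38. Bcl2 fell from 148 to 17.0 CPM in MOC1 and from 104 to 33.2 CPM in MOC1E1, a log2 fold change of -2.71 (SE 0.33, edgeR adjusted p = 0.000698), and had -0.18 (edgeR adjusted p = 1.00) with anti-PD-1. Ccr7, Klf2, Klf3, Dapl1 and Nsg2 were among the others that fell. Nsg2 and Satb1 are also on the progenitor list and are counted in both. In matched cells Bcl2 was at 109 CPM under isotype and 16.8 CPM under anti-CTLA-4 in MOC1, and at 57.7 and 42.0 CPM in MOC1E1. As given above, cells with Ccr7 made up 3.64 to 9.47% of the Tcf7+ cells under anti-CTLA-4 and 15.8 to 40.7% under isotype. The B-cell gene Ighm fell alongside under anti-CTLA-4 (log2 fold change -2.62, edgeR adjusted p = 0.000637). All 4 tested markers of NK and innate cells had negative fold changes, with a median of -1.81 and Fcer1g called. Without the cells that held a myeloid, dendritic or B-cell marker UMI, 134 genes were called, and the part of NK or innate cells was not tested. Leaving the cells with Ccr7 out left 26 called genes, all among the 122. Il12rb2 then had a log2 fold change of 3.75 (edgeR adjusted p = 0.00475), Id3 -3.65 (edgeR adjusted p = 0.00337) and Xcl1 -3.70 (edgeR adjusted p = 0.0756).

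**Figure D5:**
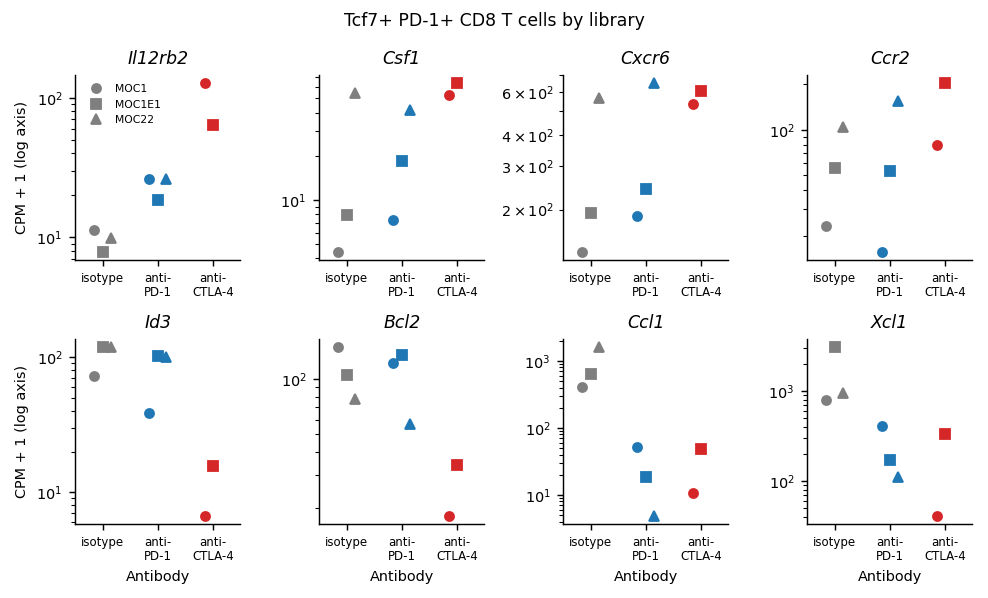
Levels of 8 genes in the Tcf7+ PD-1+ cells of each library, as CPM + 1 on a log axis, by antibody. Circles, squares and triangles mark MOC1, MOC1E1 and MOC22. Il12rb2 is highest in both anti-CTLA-4 libraries, while Id3 and Bcl2 are lowest there.

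Whether the antibodies changed the gap between Tcf7+ and matched cells was tested as an interaction, with both antibodies in 1 group. Of 7093 genes, 0 were called (0%) by edgeR and 0 by DESeq2, 300 had an unadjusted p under 0.05 in edgeR, and the smallest edgeR adjusted p was 0.0640. For Id3 and Cxcr6 the interaction was 0.63 and 0.04 on the log2 scale, each with an edgeR adjusted p of 1.00. For Ccl1 it was -2.91 (edgeR adjusted p = 0.103). The interaction of anti-CTLA-4 alone was not tested.

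Compared with all 5276 Tcf7=0 PD-1+ CD8 T cells of the same models, which include the cells that the rule removed for Havcr2, Gzmk or Mki67, 987 of 8365 genes were called (11.8%), 450 higher (5.38%) and 537 lower (6.42%). The rule shapes this contrast, so it is given as a description. All 26 tested cell cycle genes were lower, with a median of -2.04, where the matched comparison had 0 of 19 called and a median of 0.10. Gzmb fell by 2.34, Slamf6 rose by 1.33 and Tox fell by 0.88.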

How the data were processed

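The deposited single-cell matrices hold raw UMI counts per gene and barcode, and the receptor tables hold contigs with UMI counts. Cell Ranger 3.0.2 is listed, without its role, per the submitters' processing notes, as are the builds mm10 and GRCh38. Members, comparison cells and gene lists were chosen with earlier results of these data known. Counts over the 13728 genes in all tables were summed per library and state. Libraries needed 10 cells per state. Tests used edgeR 4.0.16 (quasi-likelihood, TMM factors, filterByExpr, Benjamini-Hochberg over all genes, R 4.3.3), and DESeq2 1.42.0 as an alternative. Each SE given with an edgeR result is the absolute log2 fold change divided by the square root of the F statistic. The scripts were tested on simulated counts. Summed depth was 147089 to 1249974 UMIs for Tcf7+ cells and 202476 to 3038508 for matched cells.

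Genes were named by size of log2 change: 10 up and 10 down, from those called with a mean CPM of 30 or more and 1 direction in 8 libraries, without T cell receptor and immunoglobulin segments. The 2 called members of smallest p in each list were added, and 6 genes each way for each antibody. Other genes were named after their values were seen. Doublets were not removed. Cells with a second beta chain or hashtag were left out as an alternative (61 of 499 typed members and 90 of 1494 matched cells had a second beta chain). The 2 MOC22 receptor descriptions name each other's table, and treatment was read from the tables' names. The MOC1E1 receptor samples name tables called MOC1, which the MOC1E1 clone values rest on. Of the barcodes of each receptor table, 83.1 to 99.2% were in the RNA library it was paired with and at most 0.931% in any other. Bulk RNA was not used here. Some genes, 1 clone and 1 other cell exclusion are not reported here. Intervals cover counting error only.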

Additional observations from a re-analysis of the deposited data

Results flagged for a closer look

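In 36 sets of 8 libraries, 1 value stood far from the other 7 in 4 sets, and chance alone flags about 1 set in 20. Each value is the log2 ratio of (CPM + 1), Tcf7+ over matched cells. Cd9 was at 2.09 in MOC22 anti-PD-1, where the others lay between 0.50 and 1.14. Pdlim1 was at 1.83 in MOC1E1 isotype, which held 19 Tcf7+ cells, and between 0.39 and 1.06 elsewhere. Irf8 was at -2.87 in MOC22 anti-PD-1 and between -1.51 and -0.46 elsewhere. C1qb was at -4.82 in MOC1E1 anti-PD-1 and between -0.56 and 2.27 elsewhere. That library held 6 of the 14 matched cells with 10 or more MHC class II UMIs.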

How the results depend on the processing

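The count of 205 genes between states became 135 with DESeq2, 387 without a low-count filter, 103 after thinning to 2000 UMIs and 98 with at least 2 Pdcd1 UMIs (both of which also left 7 libraries), 14 in clones holding both states and, chosen after seeing the data, 126 without cells with Ccr7 and 107 in the MOC1 and MOC22 libraries only. Leaving out 1 library gave 93 to 252, with 101 without MOC1 anti-PD-1, 135 without MOC1E1 anti-PD-1, 117 without MOC22 isotype and 93 without MOC22 anti-PD-1. In clones holding both states, 150 of the 157 of these genes that were tested kept their sign, and after thinning 183 of 185 did. C1qb turned to 0.26 with DESeq2. The anti-PD-1 count of 1 became 47 without the filter, 0 after thinning (7 libraries), 2 without likely doublets, 0 without cells with Ccr7, 48 in the MOC1 and MOC22 libraries only, and 2 to 7 without 1 library. The anti-CTLA-4 count of 122 became 34 with DESeq2, 300 without the filter, 0 after thinning and 36 with at least 2 Pdcd1 UMIs (both over 7 libraries), 26 without cells with Ccr7, and 3 to 186 without 1 library. Without MOC1 anti-CTLA-4, Lmna turned to -0.99 and Tesc to -0.58, and over all single omissions Lmna reached 3.11 and Tesc 2.87. The interaction count of 0 became 47 without the filter and 0 to 4 without 1 library. The share difference of -12.4 points became -1.48 over all CD8 T cells and -4.83 after thinning. The expanded-clone difference of -16.4 points was -10.8 at 5 or more cells (exact permutation p = 0.133), -15.4 after thinning (6 libraries, p = 0.0938), -14.3 without cells with other cell types' markers (p = 0.133, chosen after seeing the data), and -11.9 to -20.1 without 1 library. The share of cells with Slamf6 kept its direction and side of the threshold in every alternative run on it, of which thinning and the Pdcd1 limit used 7 libraries. The causes were not tested.

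No paired analysis was possible because the single-cell libraries, 1 per model and treatment, carry no replicate numbers to pair them by. The states were already compared within libraries and the antibodies within models. Depth limits the rule: 361 of 586 cells rest on 1 Tcf7 UMI, and a Tcf7 count of 0 does not show that a matched cell lacked the RNA.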

Other observations

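Between Tcf7+ PD-1+ and matched Tcf7=0 cells, where 2.89% of all tested genes were called, some other gene groups had 0 or 1 call. Of 32 interferon response genes, 27 were measured, 24 tested, 1 rose and 0 fell, with a median log2 fold change of 0.28, and the 1 was Slfn1. Ifit3 and Rsad2, antiviral effector genes, had 0.56 (edgeR adjusted p = 0.463) and 0.75 (edgeR adjusted p = 0.514). Of 8 Gimap genes, GTPases of lymphocyte survival, 0 were called (median -0.01), and of 15 listed TCF cofactors 8 were tested and Lef1 alone rose (median 0.20). Among 19 tested cell cycle genes 0 were called.

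Under anti-CTLA-4 the Tcf7+ cells carried more Ctla4 RNA (256 to 522 CPM in MOC1 and 20.7 to 107 CPM in MOC1E1, log2 fold change 1.23, edgeR adjusted p = 0.0249) and less Ikzf2, which encodes Helios (239 to 81.9 CPM and 138 to 62.8 CPM, log2 fold change -1.32, edgeR adjusted p = 0.0301). Fcer1g, an adaptor of innate receptors, fell by 2.44 (edgeR adjusted p = 0.00102). With anti-PD-1 Ctla4, Ikzf2 and Fcer1g had 0.70, 0.30 and 0.72 and were not called. In matched cells, isotype then anti-CTLA-4, Ctla4 was at 361 and 509 CPM in MOC1 and 33.6 and 106 CPM in MOC1E1. In the same order Ikzf2 was at 176 and 63.5 CPM, and 259 and 86.4 CPM. Fcer1g was at 81.0 and 31.3 CPM, and 14.4 and 128 CPM. All 14 tested glycolysis genes had positive fold changes with anti-CTLA-4, 0 of them called, with a median of 0.56, and 13 of 14 were positive with anti-PD-1, also with 0 called, with a median of 0.27.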
